A study of Mus musculus with 41 samples.

Results

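Caprin1 knockout (KO) mouse embryonic stem cells (ESCs) that had received α-amanitin for 2 h were compared with KO cells of the same clones harvested at 0 h, without it. The comparison holds 7 of the 41 samples of the series: 2 libraries of KO clone 2 and 1 of KO clone 4 at 0 h, and 2 libraries of each clone at 2 h. They were chosen by their labels and by the tables that hold their columns, and not by any measured value. KO clones and wild-type (WT) R1 cells, an ESC line, all spent 4 days in ESC medium without LIF, the cytokine that keeps ESCs undifferentiated, and with 1 µM retinoic acid (RA). α-Amanitin was used at 2 µg/ml, and 8 WT libraries (4 at 0 h, 4 at 2 h) received the same treatment and serve as the reference.

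CAPRIN1 is a cytoplasmic RNA-binding protein and a partner of the stress granule proteins G3BP1 and G3BP2. α-Amanitin, a mushroom toxin, binds RNA polymerase II and slows its movement along the template. RNAs with short half-lives are the first to fall when transcription stops, while stable RNAs fall late. Immediate early genes, such as the EGR and FOS families, are transcribed within minutes of a signal without new protein synthesis, and their mRNAs are normally short-lived. HOX genes encode the transcription factors that set position along the body axis, and RA switches many of them on.

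Total counts lay between 18855323 and 31565738 in the KO libraries at 0 h and between 6742868 and 8371258 at 2 h, so each value at 2 h rests on fewer reads. Time and table cannot be told apart, because each time point was deposited as 1 table. The first principal component of the 7 libraries held 74.6% of the variance and separated the clones, and the second held 12.6% and separated the times. Caprin1 mRNA (ENSMUSG00000027184.14; chromosome 2, 103762945 to 103797669 in GRCm38) checked the labels: it stood at 107 and 106 CPM (a count scaled to library size) in clone 2 at 0 h, at 1076 CPM in the library labelled clone 4, and at 890 ± 97.0 CPM in WT (SD, n = 4). At 2 h it stood at 128 and 140 CPM in clone 2 and at 991 CPM in both libraries labelled clone 4. Whether the transcript of clone 4 still encodes the protein cannot be read from these tables, so "clone 4" below means the libraries labelled so. Markers of ESCs summed to 772 to 1111 CPM at 0 h and 812 to 948 CPM at 2 h. Those of primitive and parietal endoderm, a cell type that RA can induce, summed to 43876 and 42535 CPM in clone 2 and 18204 CPM in clone 4 at 0 h, and to 18078 to 45224 CPM at 2 h. Fibroblast feeder markers summed to 752 and 751 CPM in clone 2 and 2539 CPM in clone 4 at 0 h, against 621 to 2387 CPM at 2 h. Neuroectoderm markers summed to 64.0 to 267 CPM at 0 h and 63.2 to 303 CPM at 2 h, and no marker of these lists was at 0 in all libraries. In bulk samples, fewer cells of a type and less RNA per cell cannot be told apart.

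Of 13730 genes tested, 1598 were higher (11.6%) and 1387 lower (10.1%) at 2 h, together 21.7%. The test was edgeR's quasi-likelihood F test with clone as a block, with calls made where the Benjamini-Hochberg adjusted p (FDR) lay under 0.05. Most calls were small: 119 genes rose and 62 fell by more than 2-fold, and the median log2 change over all genes was -0.0025. Values are shares of each library, so a rise cannot be told apart from a slower loss than that of the average transcript. With library totals alone in place of TMM scaling, the median shifted to -0.07 and the calls became 1086 higher and 2415 lower, that is 31.0% of calls higher in place of 53.5%. Without the clone block 85 genes were called. The labels do not say whether replicates came from separate cultures, so p-values measure the spread between these samples, which may be technical.

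**Figure D1:**
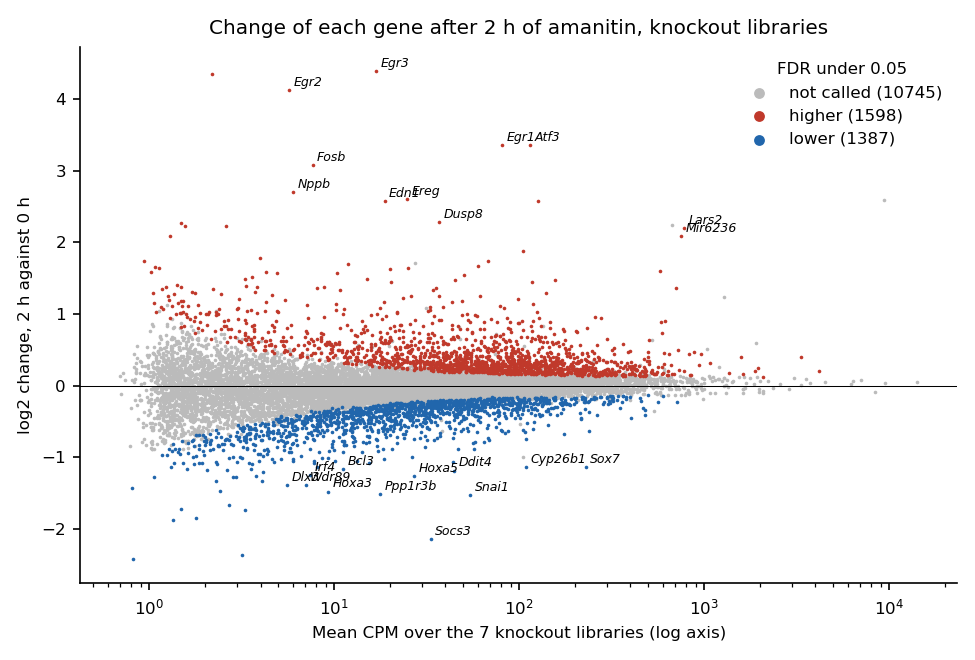
Each point is 1 of 13730 genes, with its mean level over the 7 KO libraries (CPM, log axis) against its log2 change from 0 h to 2 h. Red points (1598) were called higher and blue points (1387) lower. The genes of the EGR family, Atf3 and Fosb stand farthest above 0 among the labelled genes, and Socs3 farthest below.

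The genes with the largest increases were immediate early genes, among them Egr1, Egr2, Egr3, Atf3 and Fosb. Of 28 tested genes of the immediate early list, 21 were called higher (75%, against 11.6% of all genes) and 1 lower, with a median log2 change of 0.93. In 18 of the 28, every 2 h library stood above every 0 h library, a pattern seen in 6.42% of all genes. Socs3 fell, and the 6 members not called were Ier3 (-0.64), Klf2 (0.01), Btg1 (0.07), Fosl1 (0.57), Junb (0.72) and Maff (1.09). The same list counted between 18 and 22 members higher under every alternative but the fit without the clone block, which called 6.

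Promoter sequence is shown for 7 of the genes that rose and for Socs3, because each carries a short motif that an inducible transcription factor is known to read. Each line gives 120 bases upstream of a RefSeq start site, read along the gene's strand, with the motif in capitals. The window ends at the base before the start for Egr2, Srf, Dusp5, Zfp36 and Dusp8; to take in the motif it runs from 150 to 31 bases upstream for Dusp1, from 170 to 51 for Btg2 and from 160 to 41 for Socs3. The CArG box is CC, then 6 bases that are each A or T, then GG, and is read by serum response factor (SRF); the cyclic AMP response element (CRE) is TGACGTCA, read by CREB and ATF proteins; the STAT-type site is TTCNNNGAA. All 3 motifs read the same on both strands as patterns, and none overlaps another.
Egr2 (chr10:67537749-67537868, plus strand, CArG box): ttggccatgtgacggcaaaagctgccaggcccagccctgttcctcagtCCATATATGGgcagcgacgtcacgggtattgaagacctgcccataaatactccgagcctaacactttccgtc
Srf (chr17:46556163-46556282, minus strand, CArG boxes): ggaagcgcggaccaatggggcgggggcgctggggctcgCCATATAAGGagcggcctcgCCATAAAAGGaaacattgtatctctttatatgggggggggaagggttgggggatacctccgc
Dusp5 (chr19:53529025-53529144, plus strand, CArG boxes): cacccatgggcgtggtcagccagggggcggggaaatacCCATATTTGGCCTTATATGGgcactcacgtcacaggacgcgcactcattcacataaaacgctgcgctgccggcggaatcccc
Zfp36 (chr7:28379229-28379348, minus strand, CArG box): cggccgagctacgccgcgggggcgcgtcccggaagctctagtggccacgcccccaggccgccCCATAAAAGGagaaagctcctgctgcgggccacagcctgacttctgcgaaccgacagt
Dusp8 (chr7:142095285-142095404, minus strand, CRE): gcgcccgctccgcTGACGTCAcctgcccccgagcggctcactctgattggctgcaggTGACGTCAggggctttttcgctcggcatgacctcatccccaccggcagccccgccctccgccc
Dusp1 (chr17:26508503-26508622, minus strand, CRE): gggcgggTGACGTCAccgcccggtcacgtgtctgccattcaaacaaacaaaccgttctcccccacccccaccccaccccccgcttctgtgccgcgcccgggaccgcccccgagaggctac
Btg2 (chr1:134079206-134079325, minus strand, CRE): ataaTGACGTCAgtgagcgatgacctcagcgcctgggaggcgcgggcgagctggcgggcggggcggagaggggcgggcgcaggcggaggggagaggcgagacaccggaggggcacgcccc
Socs3 (chr11:117969407-117969526, minus strand, STAT-type site): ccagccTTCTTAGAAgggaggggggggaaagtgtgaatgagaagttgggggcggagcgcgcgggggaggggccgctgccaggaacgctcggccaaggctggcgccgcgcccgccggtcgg

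Coordinates and sequences are RefSeq's for GRCm38.p6. Srf and Dusp5 each hold 2 CArG boxes, whose first bases lie 82 and 62 bases upstream of the start in Srf and 82 and 72 in Dusp5; Dusp8 holds 2 CREs, at 107 and 63 bases. For Egr2 the table lists 5 start sites, and 4 of their windows hold a CArG box. Across the 32851 windows of 250 upstream bases in the table, 1.47% held a CArG box and 1.55% a CRE. Among tested genes with a window, a CArG box was present in 150 of 10482 (1.43%) and in 25 of the 1260 called higher (1.98%). It was in 6 of the 76 called higher by over 2-fold (7.89%) and in 3 of the 23 immediate early genes (13.0%). Of the 42 called lower by over 2-fold, 1 held it (2.38%). The CRE was present in 325 of 10482 genes (3.10%) and in 64 of those 1260 (5.08%). It was in 8 of those 76 (10.5%), in 3 of those 23 (13.0%) and in 6 of those 42 (14.3%). The STAT-type site, which 6.80% of tested genes held, was in 8 of the 42 lower genes (19%) and in 5 of the 76 higher ones (6.58%). None of the 16 HOX genes with a window held any of these 3 motifs. These genes were picked after their values were seen, and a match of letters is not a measured binding site. An AP-1 site (TGANTCA) and a TATA word (TATAAA or TTTATA) were searched as well. The AP-1 site was in 6 of the 76 (7.89%), 0 of the 23 and 0 of the 42, against 5.36% of tested genes. The TATA word was in 15 of the 76 (19.7%), 4 of the 23 (17.4%) and 4 of the 42 (9.52%), against 7.81%.

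Egr2 (chromosome 10, 67534469 to 67542188), a zinc finger transcription factor, stood at 0.228 and 0.325 CPM in clone 2 and 0.814 CPM in clone 4 at 0 h. At 2 h it stood at 4.6 and 4.19 CPM in clone 2 and at 15.4 and 14.4 CPM in clone 4. The groups did not overlap, and the log2 change was 4.12 (SE 0.209, FDR 9.31e-10), close to equal in both clones (4.04 and 4.18). Egr1 (ENSMUSG00000038418.7; chromosome 18, 34861207 to 34864956), the founding member of the family, went from 7.17 and 7.91 CPM in clone 2 and 14.6 CPM in clone 4 to 57.4, 52.8, 226 and 202.2 CPM. Its log2 change was 3.36 (SE 0.212, FDR 0.000129). Egr3 (chromosome 14, 70077317 to 70082613) went from 1.21, 1.25 and 0.610 CPM to 13.9 and 11.4 CPM in clone 2 and 47.4 and 42.2 CPM in clone 4. Here the clones differed: Egr3 rose by 3.40 in clone 2 and by 6.18 in clone 4 (log2), although both moved the same way.

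Atf3 (chromosome 1, 191170296 to 191183333), a stress-induced factor of the ATF/CREB family, rose from 17.6 and 12.6 CPM in clone 2 and 25.3 CPM in clone 4 to 225, 195, 161 and 165 CPM, a log2 change of 3.36 (SE 0.303, FDR 0.00293). It was higher in clone 4 than in clone 2 before the drug and lower after it. Fosb (chromosome 7, 19302696 to 19310118), a subunit of the AP-1 transcription factor, rose from 1.04, 1.35 and 1.42 CPM to 7.55, 6.90, 20.8 and 14.5 CPM (log2 change 3.08, SE 0.215, FDR 7.08e-08). Its partner genes moved the same way: Fos rose by 1.70 (FDR 5.57e-07), Jun by 1.30 (FDR 0.00364) and Jund by 0.74. Fos, Jun, Junb, Jund, Fosl1, Klf2 and Btg1 were added to the named genes after their values were seen. Nr4a1, an orphan nuclear receptor, rose by 1.65 (FDR 0.0269) and was also added then.

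Klf6 (chromosome 13, 5861489 to 5870393), a Krüppel-like zinc finger factor, was the most abundant immediate early gene. Its level went from 250 and 256 CPM in clone 2 and 296 CPM in clone 4 to 783, 778, 869 and 810 CPM (log2 change 1.60, SE 0.051, FDR 2.78e-12). No library of 1 time came near the other time, and the clones rose by 1.66 and 1.51. Srf (chromosome 17, 46546838 to 46558267), which encodes the factor that reads CArG boxes, stood at 55.9, 52.2 and 59.8 CPM at 0 h and at 125, 117, 144 and 135 CPM at 2 h (1.20, SE 0.058, FDR 5.70e-10). The printed Srf promoter carries its own product's motif. Of 14 tested KLF genes, a family grouped by symbol after the data were seen, 9 were called higher (64.3%) and 1 lower (7.14%). Over all genes 11.6% were higher and 10.1% lower. Klf2, Klf6 and Klf10 are among the members that the immediate early list also holds. Klf7 rose by 0.99 and Klf10 by 0.60.

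**Figure D2:**
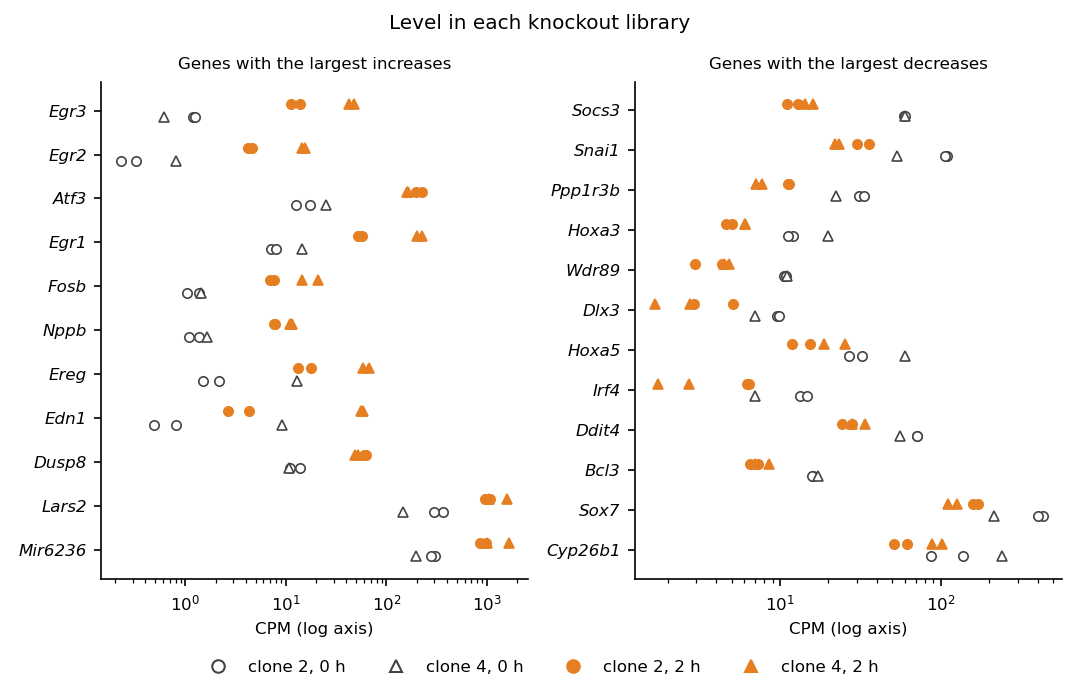
Levels (CPM, log axis) of named genes with the largest increases (left) and decreases (right), in each of the 7 KO libraries. Circles are clone 2 and triangles clone 4, open at 0 h and filled at 2 h; genes are ordered by the size of their change, and of these genes only Edn1 and Cyp26b1 overlap between times when the clones are pooled.

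Nppb, Ereg and Edn1, which encode secreted ligands, were among the 12 largest increases. Nppb, which encodes the natriuretic peptide BNP, rose from 1.37, 1.08 and 1.63 CPM to 7.80, 7.71, 11.5 and 11.0 CPM (log2 change 2.70, SE 0.161, FDR 6.84e-09). Ereg, a ligand of the EGF receptor, stood at 1.5 and 2.17 CPM in clone 2 and 12.9 CPM in clone 4, and rose to 13.3, 18, 66.8 and 59.2 CPM (2.61, SE 0.182, FDR 2.45e-06). Edn1, the precursor of the vasoconstrictor endothelin-1, stood at 0.815 and 0.488 CPM in clone 2 and 9.25 CPM in clone 4, against 2.69, 4.33, 55.8 and 58.4 CPM at 2 h (2.57, SE 0.145, FDR 3.47e-09). Within each clone its times did not overlap, but clone 2 at 2 h stayed below clone 4 at 0 h.

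Of 19 tested dual-specificity phosphatase genes, many of which inactivate MAP kinases, 9 were called higher (47.4%) and 1 lower, and of 15 tested ERK feedback genes 8 were higher (53.3%) and 2 lower; 11.6% of all genes were higher and 10.1% lower. Dusp8, which dephosphorylates stress kinases, went from 13.8, 11.1 and 10.7 CPM to 63.1, 59.9, 48.7 and 52.4 CPM (log2 change 2.29, SE 0.085, FDR 2.11e-11). Dusp4, a nuclear MAP kinase phosphatase, stood at 11.2 and 12.7 CPM in clone 2 and 48.9 CPM in clone 4 and rose to 41.8, 36.1, 169 and 158 CPM (1.75, SE 0.073, FDR 7.97e-11). The phosphatases were grouped by symbol after the data were seen, and the 1 lower was Dusp7 (-0.36). Dusp4, Dusp5, Dusp6 and Dusp7 belong to both lists and are counted in each, and Dusp1 is also in the immediate early list. Dusp5 (1.67), Dusp1 (1.04), Dusp6 (1.03) and Dusp16 (0.77) were among the 9, and Dusp9, one of the more abundant members, stood at -0.02. The median of the ERK feedback list was 0.27; Spry2, an inhibitor of receptor tyrosine kinase signalling, rose by 0.95 (FDR 7.17e-08) and Phlda1 by 0.83. The ETS factors Etv1, Etv4 and Etv5, were not called (-0.10, 0.21 and 0.09). Zfp36, which binds AU-rich elements and speeds mRNA decay, rose by 0.97, and Btg2, which recruits the deadenylase complex, by 0.89; Dusp1, Dusp5, Dusp6, Zfp36 and Btg2 were also named after their values were seen.

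In the list of MYC, ID and HES genes, 8 of 17 tested members were higher (47.1%, against 11.6% of all genes) and 3 lower (17.6%, against 10.1%), with a median of 0.24. Myc, a growth-promoting transcription factor, rose by 1.48 (FDR 0.000323) and its paralogue Mycn by 0.39, while Mnt, an antagonist of MYC, rose by 0.90 from 99.5, 90.5 and 62.3 CPM to 189, 182, 106 and 102 CPM. Mxi1, a further antagonist, fell by 0.49 on the log2 scale. Of 24 tested p53 targets, 10 were higher (41.7%) and Ddit4 was lower (median 0.20); the joint fit with WT called 6 higher. Plk2, a kinase of the stress response, rose from 69.6, 76.5 and 314 CPM to 131, 143, 603 and 602 CPM (0.94, SE 0.053, FDR 3.52e-09), Aen by 0.58 and Cdkn1a, the cell cycle inhibitor p21, by 0.33. Atf4, the main factor of the integrated stress response, rose by 0.77 (FDR 5.96e-08) from 161, 154 and 135 CPM to 274, 280, 217 and 206 CPM. Of the 27 tested genes of that response, 7 were higher (25.9%) and 2 lower (7.41%), with a median of 0.09. Its targets Asns, Trib3 and Ddit3 were not called (0.09, -0.11 and 0.11). They were picked outside the naming rule, and the 7 higher include other members that are not named here.

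The largest decrease among named genes was that of Socs3, the feedback inhibitor of JAK-STAT signalling and a target of LIF signalling (ENSMUSG00000053113.3; chromosome 11, 117966079 to 117970336). It stood at 59.4 and 59.6 CPM in clone 2 and 59.6 CPM in clone 4 at 0 h, and at 12.9, 11.1, 16.1 and 14.2 CPM at 2 h. The 3 libraries at 0 h were nearly equal, and all 4 at 2 h were far below them (log2 change -2.14, SE 0.086, FDR 6.09e-11). Snai1, the repressor that drives epithelial-mesenchymal transition, fell from 110, 107 and 53.4 CPM to 35.7, 30.0, 23.4 and 21.9 CPM (-1.52, SE 0.088, FDR 8.12e-09). Ppp1r3b, a glycogen-targeting subunit of protein phosphatase 1, fell from 30.9, 33.2 and 22.4 CPM to 11.3, 11.4, 7.70 and 7.11 CPM (-1.51, SE 0.093, FDR 8.53e-09). Smaller levels fell as well: Wdr89 by 1.39, the homeobox gene Dlx3 by 1.38, Irf4, a factor of the interferon regulatory family, by 1.25, and Bcl3, a co-regulator of NF-κB, by 1.16, each below 20 CPM in every library. Ddit4, an inhibitor of mTOR signalling, went from 70.8, 71.5 and 56.0 CPM to 24.3, 27.9, 28.2 and 33.7 CPM (-1.18, SE 0.104, FDR 3.00e-06).

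HOX genes fell as a group. Of 30 tested, 21 were called lower and 0 higher, with a median log2 change of -0.66; 10.1% of all genes were lower. In 24 of the 30, the 2 h libraries of each clone lay below its 0 h libraries, a pattern seen in 20.2% of all genes, and in 5 every 2 h library lay below every 0 h library (7.62% of all genes). Hoxa3 (chromosome 6, 52169059 to 52213067) went from 12.1 and 11.3 CPM in clone 2 and 19.8 CPM in clone 4 to 4.6, 5.01, 6.10 and 6.05 CPM (-1.48, SE 0.127, FDR 4.87e-07). Hoxa5, an axial gene of the neck and chest, went from 32.2, 26.7 and 59.5 CPM to 11.9, 15.3, 18.9 and 25.4 CPM (-1.26, SE 0.116, FDR 2.73e-06). Hoxb4 was at the same level in both clones, 25.9, 24.3 and 24.6 CPM, and fell to 13.7, 13.3, 13.5 and 12.9 CPM (-0.88). The 9 that were not called ran from -0.67 (Hoxb13) to 0.09 (Hoxb9), and posterior members were among them. The number lower ranged from 12 with the libraries thinned to equal depth to 23 with library totals alone, and was 14 with the replicate block and 1 without the clone block.

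Genes of the RA response fell in part. Of 25 tested, 11 were lower (44%, against 10.1% of all genes) and 0 higher (median -0.18). Cyp26b1, an enzyme that degrades RA, stood at 138 and 87.3 CPM in clone 2 and 239 CPM in clone 4 and fell to 50.9, 61.8, 88.1 and 102 CPM. Its 0 h libraries of clone 2 differed from each other by more than 1.5 times, and its change of -1.13 (SE 0.207, FDR 0.0195) was not called in 6 of 19 alternatives (FDR up to 0.329). The RA receptor genes Rara and Rarg fell by 0.50 and 0.42, Cyp26a1 by 0.41 and Dhrs3, which converts retinal back to retinol, by 0.78. The binding protein genes Crabp1 and Crabp2 were not called (-0.14 and -0.08). The number lower was 3 with clone 2 alone, 6 with the replicate block, and 0 without the clone block. It was also 3 without the clone 4 library at 0 h. Clone 4 then has no 0 h sample, so here and below that fit takes its change from clone 2.

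Transcription factors of the endoderm moved in both directions. Sox7, a regulator of extraembryonic endoderm and endothelium, fell from 429, 404 and 215 CPM to 158, 170, 126 and 111 CPM (-1.14, SE 0.086, FDR 2.95e-06). Foxa2, a pioneer factor of endoderm, rose by 0.80 from 78.6, 79.7 and 40.5 CPM to 149, 146, 60.9 and 58.9 CPM. Of 28 tested endoderm genes, 2 were higher and 7 lower (25%), and 7 were higher without the clone 4 library at 0 h; the structural gene Col4a1, the most abundant, moved by 0.06 and was not called. Pluripotency genes gave 3 higher and 5 lower of 29, with Klf5 up by 0.47 and Sall4 down by 0.21. Neuroectoderm genes gave 2 higher and 2 lower of 19 (10.5% each way), near the shares over all genes (11.6% and 10.1%). Dll1 stood at -0.82 and Pax6 at -0.59; Nes, at 0.17, lost its call in 15 of 19 alternatives, and with DESeq2 0 members were higher. Feeder genes gave 0 higher and 2 lower of 19 (Twist2 -0.65, Col3a1 -0.21).

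Zinc finger genes with a numbered Zfp symbol, a group made after the data were seen, gave 112 lower (33.0%) and 29 higher (8.55%) of 339 tested, against 10.1% and 11.6% of all genes, with a median of -0.18. Zfp473 fell from 38.2, 39.0 and 35.1 CPM to 17.3, 21.2, 17.9 and 16.2 CPM (-1.0, SE 0.083, FDR 3.20e-07), and Zfp217 by 0.58. Zfp655 went the other way, by 0.64. Most products of this family are DNA-binding repressors. The count lower was 67 in the joint fit with WT and 61 with libraries thinned to equal depth, and 46 were higher without the clone 4 library at 0 h.

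**Figure D3:**
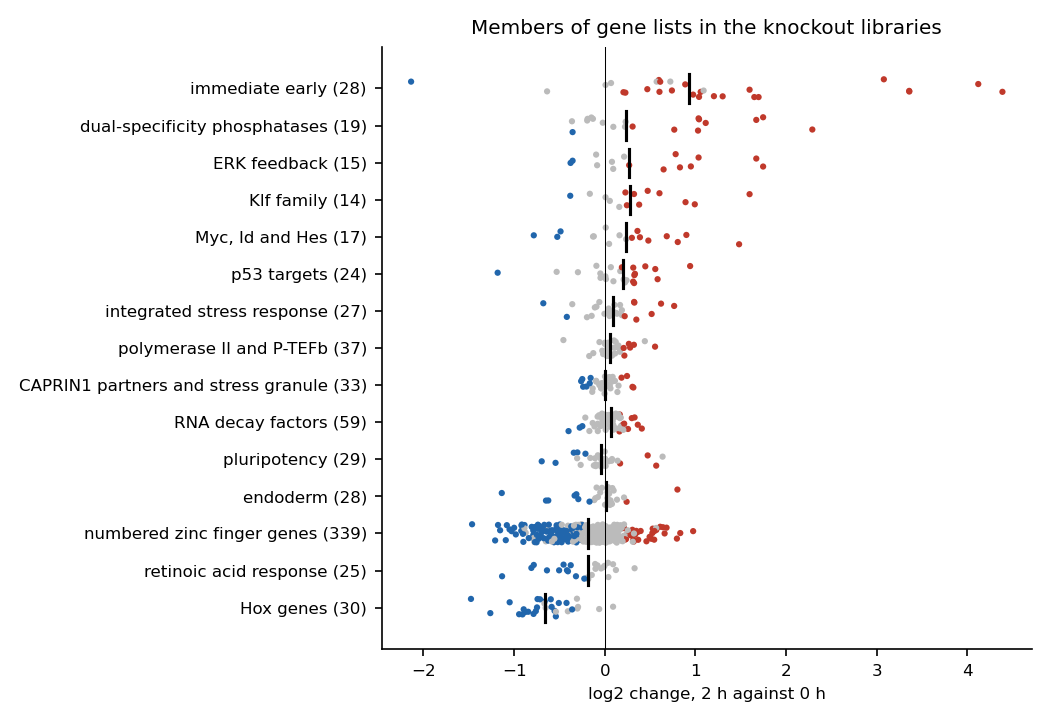
Log2 change from 0 h to 2 h of each tested member (points; numbers of members in parentheses) of 15 gene lists, with red points called higher, blue points lower, grey points not called, and a black bar at the median. The immediate early median lies at 0.93 and the HOX median at -0.66, while the CAPRIN1 partner and RNA decay medians lie at 0.00 and 0.06.

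Genes of the transcription machinery changed little. Polr2a, which encodes the subunit that α-amanitin binds, stood at 765, 742 and 876 CPM at 0 h and 769, 721, 679 and 708 CPM at 2 h (-0.13, SE 0.063, FDR 0.171). Of 37 tested genes of polymerase II and of P-TEFb, the kinase complex that releases paused polymerase, 6 were higher (16.2%, against 11.6% of all genes) and 0 lower (median 0.05); 10 were higher without the clone 4 library at 0 h and 3 in the joint fit with WT. The scaffolds Aff1 and Aff4 rose by 0.28 and 0.27 and the elongation factor Ell2 by 0.32. Rn7sk, the polymerase III transcript that holds P-TEFb inactive, rose from 15.2, 12.1 and 6.41 CPM to 23.5, 20.7, 20.8 and 25 CPM (1.09, SE 0.224, FDR 0.0114). The joint fit with WT and the fit without the clone block did not call it (FDR up to 0.384), and it was the 1 tested member of the polymerase III list. Among splicing factors, 6 of 19 were higher and 3 lower; Clk4, Srsf5 and Srsf6 rose by 0.68, 0.58 and 0.48. Malat1, a nuclear-retained long non-coding RNA, rose from 358, 317 and 429 CPM to 951, 894, 965 and 1019 CPM (1.37, SE 0.063, FDR 9.31e-10), while its neighbour Neat1 was not called (-0.24, FDR 0.425).

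Partners of CAPRIN1 and other stress granule genes, and factors of mRNA decay, stood near the median of all genes. Of 33 tested CAPRIN1 partner and stress granule genes, 4 were higher (12.1%, against 11.6% of all genes) and 6 lower (18.2%, against 10.1%), with a median of 0.00 and a range from -0.26 to 0.32. The RNA helicase gene Ddx3x rose by 0.32, and Tia1, an RNA-binding protein of stress granules, fell by 0.26. Without the clone 4 library at 0 h, 10 were higher; without clone 4 replicate 1 at 2 h, 2 were lower, and with the replicate block 1 was. The change was more downward in clone 4 than in clone 2 for 11 of the 33, against 6.51% of all genes. Of 59 tested decay factors, 9 were higher (15.3%) and 3 lower (5.08%), with a median of 0.06. That 9 became 3 or 4 without any 1 of the clone 2 libraries and 18 without the clone 4 library at 0 h, and 13 of the 59 changed more downward in clone 4. The 3 members with the smallest p-values act in nonsense-mediated decay: Smg5 rose by 0.41 and Upf3a by 0.36, whereas Upf3b fell by 0.40. The scaffold of the deadenylase complex, Cnot1, stood at -0.02.

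The remaining lists are read against 11.6% of all genes higher and 10.1% lower. Tubulin and actin genes gave 7 higher (35%) and 0 lower of 20, chaperone genes 8 (29.6%) and 1 of 27, cell cycle genes 6 and 3 of 33, and WNT targets 3 and 1 of 19. Interferon-stimulated genes gave 1 and 3 of 32, extracellular matrix genes 1 and 1 of 22, and long non-coding and snoRNA host genes 5 and 2 of 27. Glycolysis and hypoxia genes gave 0 and 6 (22.2%) of 27. Without the clone 4 library at 0 h, 4 tubulin and actin genes were higher, and without either clone 2 library at 0 h or clone 2 replicate 1 at 2 h, 2 chaperone genes were. The cell cycle count became 2 higher and 10 lower with library totals alone, and 2 higher without clone 2 replicate 2 at 0 h; the count of long non-coding and snoRNA host genes higher became 3 without any 1 of the clone 2 libraries. Cytosolic ribosomal protein genes gave 8 higher (10.3%) and 0 lower of 78, with a median of 0.01 in clone 2 and 0.27 in clone 4. Of the 78, 37 changed more upward in clone 4 than in clone 2, against 3.53% of all genes. Leaving out any 1 of the 7 libraries moved that 8 by over 1.5 times, to between 3 and 25 (without clone 2 replicate 2 at 2 h), and the joint fit with WT called 0. Within these lists, the actin genes Actg1 and Actb rose by 0.57 and 0.40, the WNT feedback genes Axin2 and Znrf3 by 0.54 each, Cdkn1b, the inhibitor p27, fell by 0.65, Stat2 by 0.80, Irf1 by 0.77, Vegfa by 0.68 and Egln3 by 0.76. Replication-dependent histone genes could not be described. Of 47 listed symbols, 1 matched a gene symbol of the deposited counts, and that gene did not pass the filter on low counts.

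Counts that look like ribosomal RNA took a larger share at 2 h than at 0 h. The gene models Lars2, Mir6236, Gm15564 and CT010467.1, which are known to collect such reads, took 0.504%, 0.356% and 0.133% of counts in the 3 libraries at 0 h and 1.39%, 1.37%, 1.69% and 2.04% at 2 h. The mean went from 0.331% ± 0.187 (SD, n = 3) to 1.62% ± 0.316 (SD, n = 4); an exact two-sided permutation test of the times within clones gave p = 0.0556, the smallest that the 18 arrangements allow. In WT the share ranged from 0.146% to 1.46% at 0 h and from 1.85% to 3.09% at 2 h. Lars2 and Mir6236, called at 2.21 and 2.08, lost the call in 10 and 7 of 18 alternatives. With these genes and the mitochondrially encoded ones removed before scaling, 3000 genes were called, of which 2978 were among the 2985.

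Mitochondrially encoded RNA, made by its own polymerase, went opposite ways in the clones. Its share of counts was 0.791% and 0.826% in clone 2 and 1.33% in clone 4 at 0 h, and 1.39%, 1.32%, 0.967% and 0.936% at 2 h. Of 9 tested genes, 0 were called in either direction with the clones together, 9 were higher with clone 2 alone (median change 0.82), and the median in clone 4 was -0.50. The ribosomal RNA gene mt-Rnr2 rose by 1.83 in clone 2 and 0.40 in clone 4, and mt-Co1, a subunit of cytochrome oxidase, by 0.39 in clone 2 against -0.62 in clone 4. Clone 4 at 0 h is 1 library, so its direction rests on that library.

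Unequal change of the clones was tested as a clone by time term. It was called for 1378 genes (10%): 484 changed more upward in clone 4 (3.53%) and 894 more downward (6.51%). The test has 3 residual degrees of freedom and takes the lone 0 h library of clone 4 to vary as the others do. With clone 2 replicate 2 at 2 h left out, 835 genes were called, and with clone 4 replicate 2 at 2 h left out 917. Across the 13730 genes the clones' changes correlated with r = 0.518 and rho = 0.417, a description over genes that share libraries within a clone. Besides Egr3, the largest positive differences were those of Sp8, a zinc finger factor of the SP family (-0.76 in clone 2, 1.22 in clone 4), Ier3 (-1.53 and 0.32), Kctd11 (-1.21 and 0.50) and Arc, an immediate early gene of neurons (0.29 and 1.97). Ier3 went from 48.1 and 43.3 to 14.2 and 16.9 CPM in clone 2 and from 41.9 to 53.8 and 51.0 CPM in clone 4, so that equal starting levels ended more than 3-fold apart. Arc stood at 2.22, 2.60 and 3.10 CPM at 0 h and rose in clone 4 alone, to 13.2 and 11.0 CPM, against 2.69 and 2.98 CPM in clone 2. The largest negative differences were those of mt-Nd2 (1.16 and -0.39), mt-Rnr2, Prox1 (0.43 and -0.98), the cyclin-like gene Ccnjl (-0.27 and -1.63) and mt-Cytb (0.82 and -0.50). HOX genes gave 0 of 30 members with a clone difference in either direction, immediate early genes 12 with the larger rise in clone 4 and 3 with the smaller.

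WT cells showed how much of this was shared. In a joint fit of the 15 libraries at 0 and 2 h with the line as a term, 3337 of 14341 genes changed in WT (23.3%, with 12% higher and 11.2% lower). In KO 1748 changed (12.2%, with 6.47% higher and 5.72% lower). These shares do not compare the size of the response. WT has 4 libraries of 1 line at each time. KO has 3 at 0 h and 4 at 2 h, from 2 clones fitted with 1 common change, and the KO libraries alone gave 21.7%. Of the 1598 genes called higher in KO, 1539 had the same sign in WT and 1032 were also called higher there, with 3 called lower. For the 1387 called lower, 1330 had the same sign and 836 were called lower, with 1 called higher. KO and WT share no library, but they share the tables. Total counts in WT lay between 3953468 and 22684394 at 0 h, so some of these libraries were shallower than those of KO. At 2 h they lay between 6359591 and 7154070. The changes of KO and WT correlated across genes with r = 0.731 and rho = 0.659 (14341 genes, which are not independent replicates).

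The change itself differed between KO and WT in 50 genes (0.349%), 43 with the lower value in KO (0.3%) and 7 with the higher (0.0488%). Of the 43, 41 rose in WT. The median WT change was 1.11 against a median KO change of 0.23, and both clones lay below WT in all 43. The 43 were picked by this difference in the same libraries. These medians and directions therefore follow largely from the choice and are no separate evidence. Each clone was also set against WT, an alternative chosen after the data were seen: clone 2 differed in 97 genes and clone 4 in 10, and 5 of the 43 were called in each. Leaving out 1 library at a time gave 24 genes (without clone 2 replicate 1 at 2 h) to 96 genes (without the clone 4 library at 0 h). In the fit that gave 96, the KO change comes from clone 2 only. The count was 25 without clone 2 replicate 2 at 2 h, 26 without either clone 2 library at 0 h, 28 without WT replicate 3 at 2 h, and 30 without clone 4 replicate 2, WT replicate 2 or WT replicate 4 at 2 h. With no line term 0 genes were called by edgeR; in the fit with it, 936 genes had an unadjusted p under 0.05. The replicate block gave 44.

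Thbs1, which encodes thrombospondin-1 of the extracellular matrix (chromosome 2, 118111876 to 118127133), had the smallest FDR. In WT it went from 301 ± 20.9 to 1203 ± 89.2 CPM (SD, n = 4 each). In KO it went from 506 and 560 CPM in clone 2 and 2403 CPM in clone 4 to 702, 708, 3146 and 2988 CPM. The log2 change was 2.00 in WT and 0.40 in KO, a difference of -1.61 (SE 0.0996, FDR 1.26e-08), with -1.58 in clone 2 and -1.65 in clone 4. Both clones thus rose less than WT, from starting levels above it.

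Bmp2, a ligand of the BMP pathway, rose in WT from 17.6 ± 0.861 to 54.6 ± 2.12 CPM and not in KO, where it stood at 62.4, 62.5 and 26.4 CPM and then at 61.1, 55.6, 31.5 and 30.7 CPM. The difference was -1.59 (SE 0.113, FDR 6.79e-08). Maff, a small MAF transcription factor, differed by -1.90 (FDR 0.00254), Nab2, a corepressor of EGR proteins, by -1.46 (FDR 0.0471) and Ankrd1, a target of the coactivator YAP, by -1.38 (FDR 0.00283). For Maff and Nab2 the clones were unequal: Maff went from 15.8, 16.8 and 18.1 CPM to 22.8 and 23.5 CPM in clone 2 and 65.5 and 57.5 CPM in clone 4, and Nab2 rose in clone 4 only, from 15.8 to 43.3 and 37.2 CPM. In WT Maff rose from 10.6 ± 1.64 to 79.4 ± 6.72 CPM and Nab2 from 17.2 ± 3.09 to 68.4 ± 3.42 CPM. Socs3 fell more in KO, by 2.15 against 1.25 in WT (difference -0.90, FDR 0.0174); WT libraries held 42.5 ± 6.91 CPM of it before the drug and 17.6 ± 0.784 CPM after 2 h. The 3 KO libraries at 0 h lay above all 4 of WT, and the 4 KO libraries at 2 h below all 4 of WT.

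Id3, an inhibitor of bHLH factors and a BMP target, led the other direction among the named genes: it fell in WT from 214 ± 36.3 to 143 ± 11.0 CPM and in KO stood at 64.7, 64.2 and 91.1 CPM, then at 88.1, 82.5, 95.3 and 100.6 CPM (difference 0.87, SE 0.151, FDR 0.0104). Dhrs3 changed by -1.58 in WT and -0.77 in KO (difference 0.80). Irf9, a subunit of the interferon response complex, fell by 0.76 in WT and stood at 0.02 in KO, a value that pools unequal clones. Against WT its change was higher by 0.98 in clone 2 and by 0.48 in clone 4. Over the 7 genes of this direction, the median difference from WT was 0.995 in clone 2 and 0.549 in clone 4. Of the 7, 0 were called against WT in both clones, and clone 4 has 1 library at 0 h. Bambi, a pseudoreceptor that damps BMP and TGF-β signals, rose by 0.68 in KO and not in WT (-0.04). Efna4 fell by 0.47 in WT and stood at 0.20 in KO, a value the joint fit did not call (FDR 0.142); its call in the KO libraries alone was lost in 15 of 19 alternatives (FDR up to 0.914). Of the immediate early list, 2 of 28 tested genes (Maff and Socs3) differed between KO and WT, and Egr1, Egr2, Egr3, Atf3 and Fosb did not pass that test. Their differences were -0.63, -1.55, -1.80, 0.63 and -1.02. Against WT, clone 2 alone rose less for Egr1 (-1.06, FDR 0.00188) and Egr3 (-2.76, FDR 0.000948) and more for Atf3 (1.08, FDR 0.00102), while clone 4 stood at -0.08, 0.03 and -0.03.

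**Figure D4:**
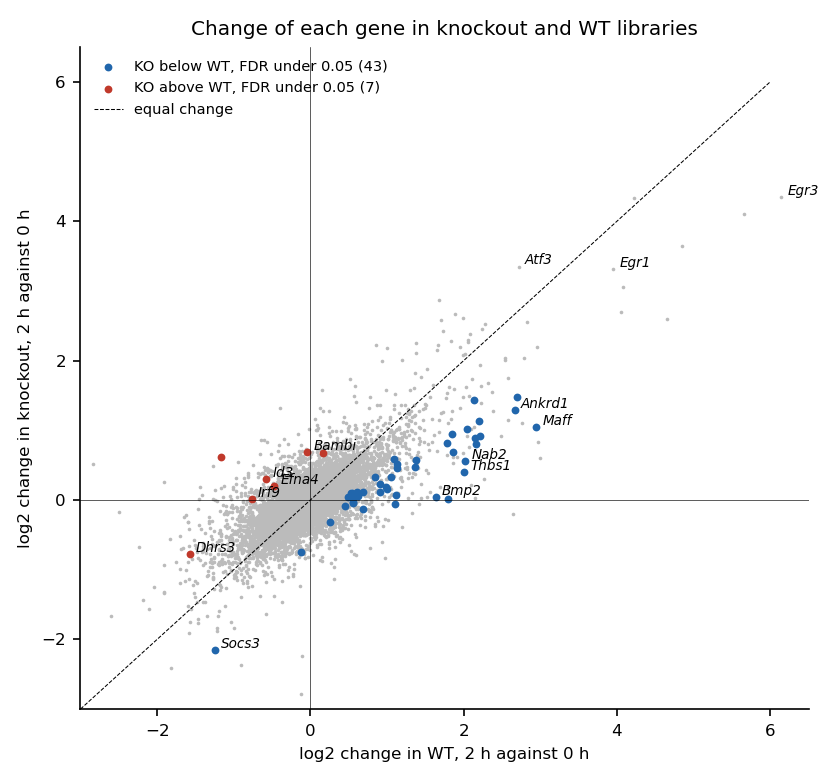
Log2 change from 0 h to 2 h in WT (horizontal axis) and in KO (vertical axis) for the genes of the joint fit; 1 gene lies outside the axes. Blue points (43) changed less upward or more downward in KO than in WT and red points (7) the reverse, at an FDR under 0.05, and Bmp2 lies near 0 in KO and Thbs1 at 0.40, against 1.63 and 2.00 in WT.

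Later times show whether the 2 h levels lasted. These values share the 0 h libraries with the 2 h comparison and are given side by side without a test. Egr1 was at 25.3 CPM in clone 2 and 53.1 CPM in clone 4 at 4 h and at 4.19 and 16.6 CPM at 8 h (means of 2 libraries), against 7.54 and 14.6 CPM at 0 h. Atf3 was still higher at 4 h, at 370 and 207 CPM, and back at 15.7 and 20.3 CPM at 8 h. Klf6 held 761 and 820 CPM at 4 h and was at 219 and 334 CPM at 8 h. The immediate early median over all KO libraries was 0.95 at 2 h, 0.69 at 4 h and 0.03 at 8 h against 0 h.

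Socs3 partly regained its level, with 23.0 and 21.4 CPM at 4 h and 30.3 and 29.7 CPM at 8 h. Snai1 in clone 2 was back at 112 CPM at 4 h and 124 CPM at 8 h, and in clone 4 at 41.5 and 41.7 CPM. Cyp26b1 went on falling, to 17.1 and 44.9 CPM at 4 h and 4.36 and 19.9 CPM at 8 h. HOX genes went from a median of -0.66 at 2 h to -0.88 at 4 h and -1.15 at 8 h. At 4 h the median of cytosolic ribosomal protein genes was -2.21, against 0.09 at 2 h and -0.09 at 8 h, and that of the ribosomal RNA-like genes was -1.65, so the 4 h table stands apart from the others. Its part in the 4 h values was not tested.

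**Figure D5:**
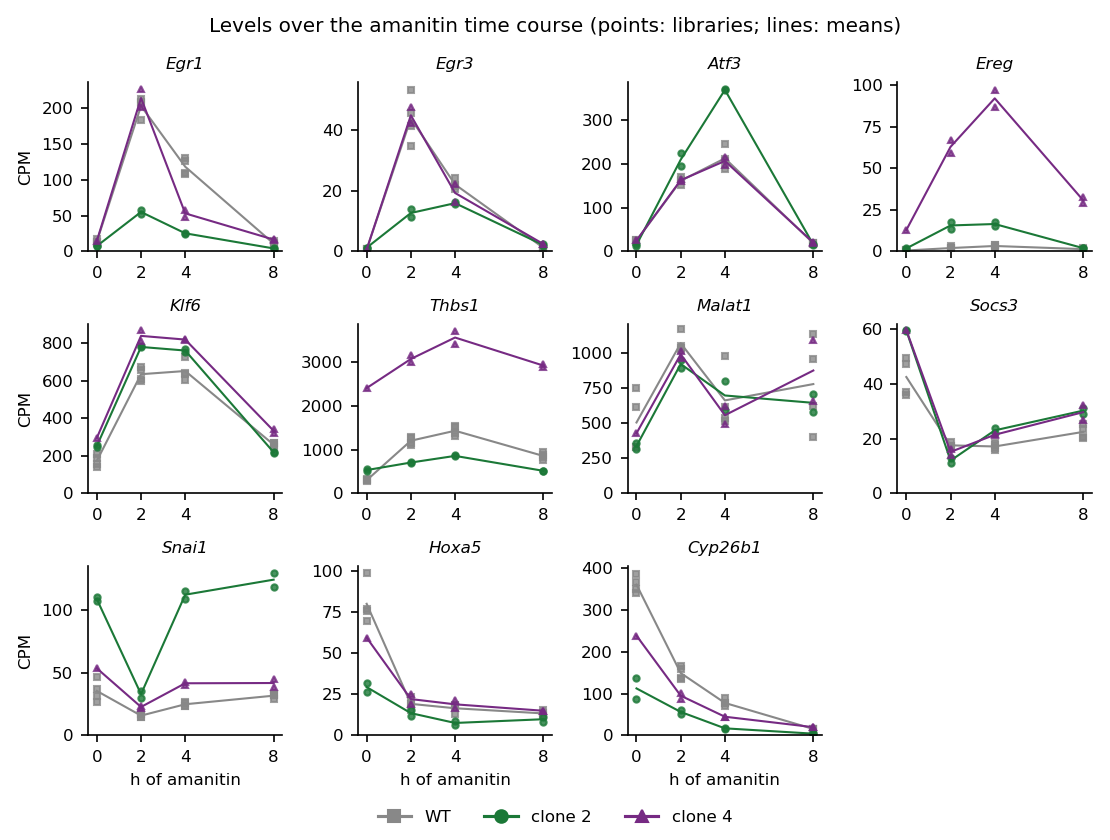
Levels (CPM, linear axes) of 11 named genes in every library at 0, 2, 4 and 8 h of α-amanitin, with points for libraries and lines for the means of WT (grey squares), clone 2 (green circles) and clone 4 (purple triangles). In both clones Egr1 and Atf3 are back near their 0 h level at 8 h, while Hoxa5 and Cyp26b1 are at their lowest at 4 or 8 h.

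A pair of deposited gene lists, which give symbols without values, criteria or direction, stand in the series beside libraries of RNA immunoprecipitated with CAPRIN1 and were set beside these changes. Of the symbols in the list named CNT vs RA, 2057 were tested; 368 were higher (17.9%) and 215 lower (10.5%), with a median of 0.02. Of those in the list named 2I vs RA, 2332 were tested; 306 were higher (13.1%) and 230 lower (9.86%), with a median of 0.01. Listed genes are more abundant than most, with median levels of 111 and 94.5 CPM at 0 h against 26.1 CPM over all genes. Among the fifth of genes with the highest 0 h level, 17.9% were called higher and 8.27% lower. The share higher in the list named CNT vs RA was also 17.9%, but its share lower, 10.5%, was above that of these abundant genes. In the list named 2I vs RA the share higher, 13.1%, was below theirs and the share lower, 9.86%, above. Many listed genes lie at lower levels, and the lists were not compared with genes matched for level. The part of abundance in these shares was therefore not tested. These balances depend on the scaling. With library totals alone the first list gave 238 higher and 450 lower and the second 209 and 489, and with no filter on low counts 265 and 354, and 236 and 388. Without the clone 4 library at 0 h, 608 and 533 were higher. The change differed between KO and WT in 20 of the 2059 genes of the first list in the joint fit (0.971%) and in 18 of the 2345 of the second (0.768%), against 0.349% of all genes. Among the fifth of genes with the highest mean level, 18 of 2869 differed (0.627%), of which 15 were among the 1215 genes of the first list (1.23%) and 14 among the 1224 of the second (1.14%). These shares are a description without a test.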

How the data were processed

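Stranded mRNA-seq of mouse ESCs was analysed from the authors' deposited tables of raw counts per gene, 1 table per time point, with no normalization, per the file headers and values. The tables also hold gene lengths in bases, and 2 deposited lists hold symbols. Libraries were made with a stranded mRNA kit, per the labels' protocols. The submitters' processing notes name GRCm38, mm10, FastQC 0.11.9, STAR 2.4.0.1, TopHat, Cufflinks, Cuffdiff and DESeq2; no source used here gives the annotation, counting program or strand setting, so reads of overlapping or antisense genes cannot be told apart. Of 51520 lines per table, 110 duplicates were dropped, which left 51410 genes.

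Counts were tested with edgeR 4.0.16 in R 4.3.3: TMM scaling, filterByExpr, a robust quasi-likelihood F test with clone and time as terms, and Benjamini-Hochberg adjustment over all 13730 genes tested. The standard error is the absolute log2 change divided by the square root of F. CPM values use TMM factors over all 31 libraries. Terms for clone by time and genotype by time tested differences in change. Alternatives, among them DESeq2 1.42.0, are described at the end. Scripts were tested on simulated data. Clone 4 has 1 library at 0 h, taken to vary like the others.

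Named genes were Caprin1, Polr2a, Malat1, Neat1 and Rn7sk. To these were added, among called genes with a mean of at least 5 CPM and no overlap of times within either clone, the 12 largest changes each way. Each list gave its 3 members with the smallest p and the 1 most abundant, and each difference in change gave its 5 largest genes each way. A few genes that the rule names are not reported here, though counts over lists include them. Members and lists were chosen with earlier results of these data known. Promoters are RefSeq's (GRCm38.p6), in a table that holds 97 of the 140 named genes.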

Additional observations from a re-analysis of the deposited data

Results flagged for a closer look

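Among 144 values tested in the 4 KO libraries at 2 h, 1 library stood apart from the other 3: Eif2ak2, the double-stranded RNA sensor kinase, read 106 CPM in clone 2 replicate 1 against 92.7, 94.0 and 94.7 CPM. Chance sets apart about 1 in 20 groups of like libraries. These 4 come from clones 2 and 4, which differ in level for many genes, so that rate need not hold here.

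The log2 change at 2 h differed between KO and WT in 11 named genes by the genotype by time term of edgeR. KO minus WT, it was -1.90 for Maff, -1.61 for Thbs1, -1.59 for Bmp2, -1.46 for Nab2, -1.38 for Ankrd1 and -0.90 for Socs3. On the other side it was 0.87 for Id3, 0.80 for Dhrs3, 0.78 for Irf9, 0.72 for Bambi and 0.68 for Efna4.

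The log2 change differed between the clones in 46 of the named genes reported here by the clone by time term, with 1 library of clone 4 at 0 h behind each. Transcription factor and signalling genes with the larger value in clone 4 were Egr3 (2.78), Sp8 (1.99), Ier3 (1.85), Kctd11 (1.71), Arc (1.68), Nab2 (1.46), Maff (1.22), Egr1 (0.95), Dll1 (0.89), Ddit4 (0.56), Sox7 (0.46), Snai1 (0.45), Dusp9 (0.40) and Vegfa (0.28). The nuclear RNAs Rn7sk (1.12) and Neat1 (0.82) lay on the same side.

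The 6 mitochondrially encoded genes were lower in clone 4: mt-Nd2 (-1.55), mt-Rnr2 (-1.43), mt-Cytb (-1.31), mt-Nd1 (-1.27), mt-Co1 (-1.01) and mt-Rnr1 (-0.95). Developmental and signalling genes on that side were Prox1 (-1.41), Atf3 (-1.10), Ereg (-0.89), Ankrd1 (-0.73), Bambi (-0.64), Irf9 (-0.52), Znrf3 (-0.49), Tshz1 (-0.45), Klf5 (-0.40), Foxa2 (-0.37), Id3 (-0.33) and Mycn (-0.29). Ccnjl stood at -1.36 and Caprin1 itself at -0.49. Genes of RNA metabolism differed by less: Polr2a (-0.35), Aff4 (-0.34), Srsf6 (-0.31), Ddx3x (-0.27), Pabpc1 (-0.24) and Cnot1 (-0.23). The remaining genes were Meg3 (-0.29), Malat1 (-0.27), Dnaja2 (-0.26) and Zfp106 (-0.22).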

How the results depend on the processing

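Beside the 2985 genes called at 2 h, the number called was 1972 (849 lower; 1937 shared with the 2985) with a replicate block (clone and replicate number), 1748 (928 higher, 820 lower; 1698 shared) in the joint fit with WT, 1569 (932 and 637; 1481 shared) with libraries thinned to the shallowest, and 85 (62 and 23; all 85 shared) without the clone block. The count lower was 2415 with library totals, 2109 with no filter on low counts and 919 with DESeq2. Leaving out 1 library gave 2034 to 3821 genes, 1098 to 2183 higher and 936 to 1638 lower. The highest counts came without the clone 4 library at 0 h, a fit whose change rests on clone 2. The same holds for the 96 of the KO and WT difference below. Replicate numbers are shared only as numbers (r = 0.139 between the clone 2 deviations over 10966 genes), so the replicate block is no pairing. Among 140 named genes, RLE scaling kept direction and side of the threshold for 140, DESeq2 for 134 and no clone block for 53. Col3a1 turned to 0.17 without the clone block; with clone 2 alone mt-Co1 stood at 0.39, Prox1 at 0.43 and Sp8 at -0.76, and without the clone 4 library at 0 h at 0.39, 0.43 and -0.77. Without 1 library, mt-Co1 ranged from -0.17 to 0.39, Prox1 from -0.36 to 0.43 and Sp8 from -0.77 to 0.33. The KO and WT difference gave 0 genes (0 higher, 0 lower) with no line term, 97 (20 and 77) for clone 2, 10 (1 and 9) for clone 4, 44 (7 and 37) with the replicate block, and 24 to 96 (2 to 16 higher, 22 to 80 lower) without 1 library. The clone difference gave 835 to 1266 genes (248 to 449 and 587 to 836) without 1 library. The cause of these shifts was not tested. Depth at 2 h limits genes of a few CPM.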
